A study of Arabidopsis thaliana with 9 samples.

Results

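Transcript levels of WRKY and NAC transcription factor genes were compared in dark-grown Arabidopsis thaliana seedlings of 3 genotypes. Genes were taken where a probe set of the array had exactly 1 gene in the platform annotation and a symbol made of WRKY, MYB, NAC or ANAC followed directly by a number, with or without a leading AT. WRKY6 was left out. The rule gave 6 genes, of 13350 genes with such a 1-gene probe set, each with a single probe set: WRKY20 (AT4G26640), WRKY22 (AT4G01250), WRKY42 (AT4G04450), WRKY47 (AT4G01720), WRKY53 (AT4G23810) and NAC014 (AT1G33060). No probe set was named as a numbered MYB gene, so MYB genes are not analysed here, and the 5 WRKY genes and 1 NAC gene are a small part of their families. RefSeq numbers 72 WRKY genes, 16 of them on chromosome 4. The 5 WRKY genes kept after WRKY6 was left out all lie on chromosome 4, and NAC014 lies on chromosome 1.

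WRKY proteins are plant transcription factors that bind short promoter elements called W boxes and are best known for controlling defence against pathogens, leaf senescence and nutrient responses. NAC proteins are another plant-specific family, whose members control stress responses, senescence, organ boundaries and secondary walls. In darkness, brassinosteroid hormones promote elongation of the seedling and hold back light-type development, and AtGATA2 is a GATA-type factor that promotes light-type development.

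All seedlings were of the Columbia-0 ecotype and stayed in darkness on solid medium containing 1% sucrose until frozen, dark as well, after 108 h. The wild type (Col) had 3 arrays. The mutant group (bri1-116), also with 3 arrays, held homozygotes of a null allele of the brassinosteroid receptor gene BRI1, picked singly from a segregating population. The third group (AtGATA2ox, 3 arrays) was a transgenic line overexpressing AtGATA2. The labels state neither the promoter of the transgene nor the number of independent lines or of seedlings per array. They also do not say whether replicates were separate cultures, so a p-value reflects the spread among these arrays alone, which may be technical. The series sets both genotypes beside the wild type to look for links between light and brassinosteroid control of development.

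The values are linear intensities of a single-colour Affymetrix array, whose number per genotype limits the precision. Fold changes are differences of log2(intensity + 1) from 1 limma fit over all 9 arrays and 22746 probe sets. They are given ± SE, with Benjamini-Hochberg adjusted p over all probe sets, and a gene was called at an adjusted p under 0.05. Means are given ± SD (n = 3). Control probe sets for Bacillus genes, to which no plant RNA should bind, read up to 63.9 on the Col arrays, 69.5 on the bri1-116 arrays and 84.1 on the AtGATA2ox arrays. An intensity in that range does not show that a transcript was present. Levels of different genes come from different probes and are not set against each other. The 3′ to 5′ signal ratio of actin, a measure of RNA and cDNA length, was lowest in Col (1.81 to 2.03), with bri1-116 at 2.86 to 4.88 and AtGATA2ox at 3.66 to 5.45. Its part in the results was not tested. RNA came from whole seedlings, in which fewer cells of a type and less RNA per cell cannot be told apart.

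WRKY22 was higher than wild type in both genotypes. It encodes a factor that acts downstream of a MAP kinase cascade in immune signalling and also promotes leaf senescence in darkness. The 3 Col arrays read 378.3, 358.8 and 353.4 (364 ± 13.1). The bri1-116 arrays read 981.5, 799.1 and 1010.1 (930 ± 114), and the AtGATA2ox arrays read 808.4, 780 and 1251.3 (947 ± 264). Every array of either genotype was above every Col array, and all 9 values were far above the Bacillus controls. WRKY22 rose 2.54-fold in AtGATA2ox (log2 fold change 1.34 ± 0.19, adjusted p = 0.00018). It rose by the same factor, 2.54-fold, in bri1-116 (1.35 ± 0.19, adjusted p = 0.00032). Both values rest on the same 3 Col arrays. The direct difference between AtGATA2ox and bri1-116 was -0.0019 ± 0.19 with a 95% interval from -0.42 to 0.42. The call in AtGATA2ox depended on the scaling: with arrays scaled to the hybridisation controls, which moved the median change of all probe sets by -1.05, WRKY22 was at 0.29 (adjusted p = 0.24). In bri1-116 it stayed called with that scaling (0.87, adjusted p = 0.0087), and it was then lower in AtGATA2ox than in bri1-116 (-0.58, adjusted p = 0.04). The 25S ribosomal RNA control was high on bri1-116 replicates 1 and 2. With replicate 3 as the only bri1-116 array, whose spread was then assumed to be like that of the other groups, the rise was as large (1.47, adjusted p = 0.018).

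**Figure D1:**
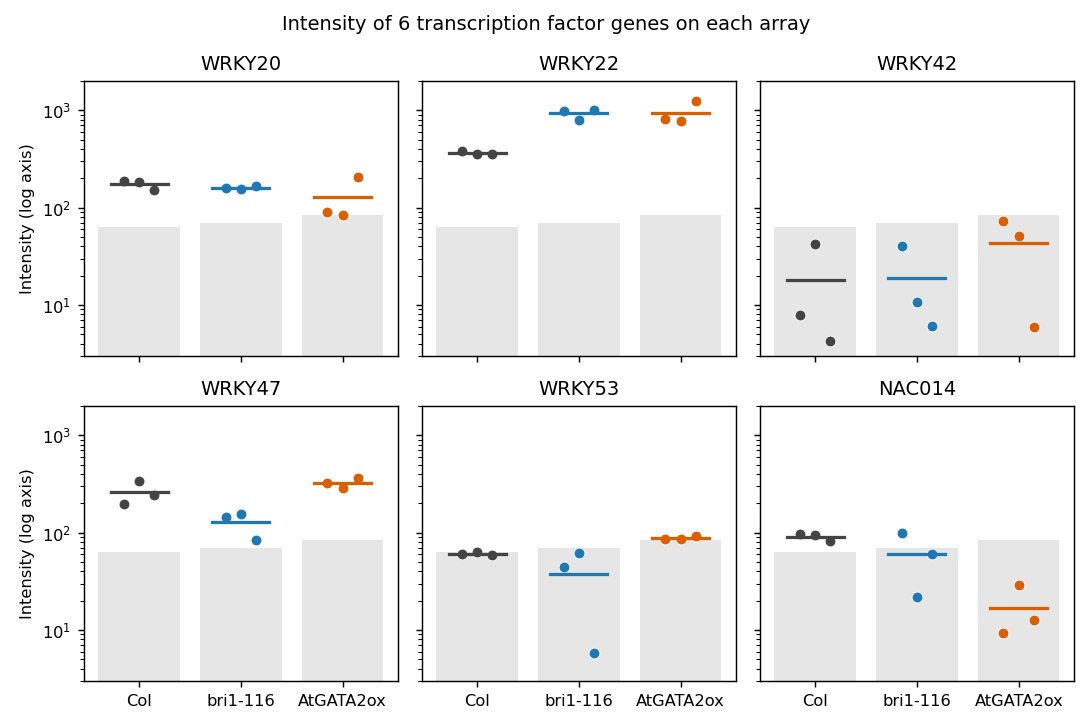
Intensity (log axis) of each of the 6 genes on each of the 9 arrays. Points are arrays in replicate order, bars are means of 3 arrays, and grey columns reach up to the highest Bacillus control reading of the genotype (63.9, 69.5 and 84.1). The WRKY22 points of bri1-116 and AtGATA2ox (780 to 1251.3) all lie above those of Col (353.4 to 378.3), and the NAC014 points of AtGATA2ox (9.4 to 28.8) lie below those of Col (81.5 to 96.1), within the grey column.

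WRKY53 was highest in AtGATA2ox, by a small margin that did not pass the test. The gene encodes a factor that promotes leaf senescence at its onset and takes part in defence. It read 60.7, 62.9 and 58.8 in Col, 44.3, 62.5 and 5.8 in bri1-116, and 87.2, 86.8 and 91.6 in AtGATA2ox. The 3 AtGATA2ox arrays were above all 6 others, while bri1-116 and Col overlapped, and the bri1-116 arrays were the most spread. AtGATA2ox was at 1.46 times the Col mean (88.5 ± 2.66 against 60.8 ± 2.05), with a log2 fold change of 0.53 ± 0.74 and an adjusted p of 0.65. The fit takes its spread from all genotypes, and without bri1-116 replicate 3 the adjusted p was 0.42. With all values raised to at least 84.1, the highest Bacillus reading, the change was 0.073. That floor made every Col and bri1-116 reading of WRKY53 the same value. The call it gave (adjusted p = 0.032) therefore reflects no measured spread in those groups. Against bri1-116 the difference was 1.73 ± 0.74 (adjusted p = 0.1), the largest among the members not called in that comparison. It was called without bri1-116 replicate 2 (2.35, adjusted p = 0.049), and it was 3.72 with replicate 3 as the only bri1-116 array. With values raised to 84.1 it was 0.073, and that call (adjusted p = 0.035) again rests on bri1-116 readings made equal by the floor. The difference of bri1-116 from Col, -1.2 ± 0.74 (adjusted p = 0.35), was likewise the largest uncalled one there. With replicate 3, at 5.8, as the only bri1-116 array it became -3.18 (adjusted p = 0.028), and without replicate 3 it was -0.2 (adjusted p = 0.87). The Col and bri1-116 readings lie within the range of the Bacillus controls, and the AtGATA2ox readings lie just above it.

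WRKY47 was lower in bri1-116 than in the other genotypes. In Arabidopsis it encodes a factor linked to aluminium tolerance through genes that modify the cell wall. It read 198.5, 337.2 and 246.5 in Col (261 ± 70.4), 143.7, 156 and 84.2 in bri1-116 (128 ± 38.4), and 326.1, 290.4 and 362 in AtGATA2ox (326 ± 35.8). All bri1-116 arrays were below all other arrays, and the Col and AtGATA2ox arrays overlapped. WRKY47 fell 2.05-fold in bri1-116 against Col (-1.04 ± 0.3, adjusted p = 0.031). This call was lost with quantile normalization (adjusted p = 0.0502) and with eBayes without an intensity trend (0.077). It was also lost with values raised to at least 84.1 (0.067). That floor changed no WRKY47 reading, the lowest being 84.2, and left the log2 fold change the same. The call was lost as well without Col replicate 2 (0.16), Col replicate 3 (0.086), bri1-116 replicate 1 (0.053) or bri1-116 replicate 3 (0.12). The log2 fold change stayed between -1.22 and -0.76 when single arrays were left out. The direct comparison was steadier, with WRKY47 2.61-fold higher in AtGATA2ox than in bri1-116 (1.39 ± 0.3, adjusted p = 0.0035, and at most 0.015 without any single array). Scaled to the hybridisation controls it came to 0.81 and lost its call (adjusted p = 0.065). AtGATA2ox and Col differed by 0.35 ± 0.3 (adjusted p = 0.43, 95% interval from -0.29 to 0.99). With scaling to the hybridisation controls that difference was below 0 (-0.7, adjusted p = 0.085).

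WRKY42 was at background in every genotype. It encodes a factor that controls phosphate uptake and transport genes in the root. It read 7.8, 42.2 and 4.3 in Col, 40.1, 10.6 and 6.1 in bri1-116, and 73.1, 51.7 and 6 in AtGATA2ox, all within the range of the Bacillus controls, and the 3 groups overlapped. The log2 fold change in AtGATA2ox was 1.25 ± 1.09, the largest of the members not called against Col there (adjusted p = 0.45). Its 95% interval, from -1.11 to 3.61, holds both a fall and a large rise, so these arrays do not settle the level of WRKY42. The difference of bri1-116 from Col was 0.25 ± 1.09 (adjusted p = 0.93), and that of AtGATA2ox from bri1-116 was 1 ± 1.09 (adjusted p = 0.57).

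WRKY20 showed similar levels in Col and bri1-116 and divided levels in AtGATA2ox. It belongs to the WRKY group whose proteins carry a pair of WRKY domains. It read 186.6, 181.7 and 150.4 in Col (173 ± 19.6), 158.6, 155.4 and 168.3 in bri1-116 (161 ± 6.72), and 90.1, 84.9 and 208.5 in AtGATA2ox (128 ± 69.9). AtGATA2ox replicates 1 and 2 were below all other arrays, and replicate 3 was above them all. The difference of bri1-116 from Col was -0.1 ± 0.36, with a 95% interval from -0.88 to 0.68. AtGATA2ox differed from Col by -0.55 ± 0.36 (adjusted p = 0.3). That difference was called without AtGATA2ox replicate 3 (-0.97, adjusted p = 0.037) and with hybridisation control scaling (-1.6, adjusted p = 0.0023). Against bri1-116 AtGATA2ox was at -0.46 ± 0.36 (adjusted p = 0.41), and at -1.03 with hybridisation control scaling (adjusted p = 0.042).

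NAC014, a member of the NAC family, was lower in AtGATA2ox than in Col, at dim intensities. It read 96.1, 95.2 and 81.5 in Col (90.9 ± 8.18), 99.4, 21.7 and 60.3 in bri1-116 (60.5 ± 38.9), and 9.4, 28.8 and 12.6 in AtGATA2ox (16.9 ± 10.4). The AtGATA2ox arrays were below all Col arrays but overlapped with bri1-116, whose own arrays were spread from the Col level down to the AtGATA2ox level. NAC014 fell 5.68-fold in AtGATA2ox (-2.5 ± 0.68, adjusted p = 0.014). All AtGATA2ox readings lie within the range of the Bacillus controls, so the fold is not exact, and every group mean was below the median of all values, 124.5. The fall was not called without Col replicate 1 or Col replicate 2 (adjusted p = 0.052 for both). With all values raised to at least 84.1 it was -0.12 (adjusted p = 0.37). That floor made all AtGATA2ox readings equal and lay close to the Col readings, so it could not show a large fall. Against Col, bri1-116 was at -0.82 ± 0.68 (adjusted p = 0.53), and AtGATA2ox was below bri1-116 by -1.68 ± 0.68 (adjusted p = 0.09). The latter difference was called after hybridisation control scaling (-2.26, adjusted p = 0.019), and without bri1-116 replicate 2 (-2.28, adjusted p = 0.034) or AtGATA2ox replicate 2 (-2.13, adjusted p = 0.044).

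**Figure D2:**
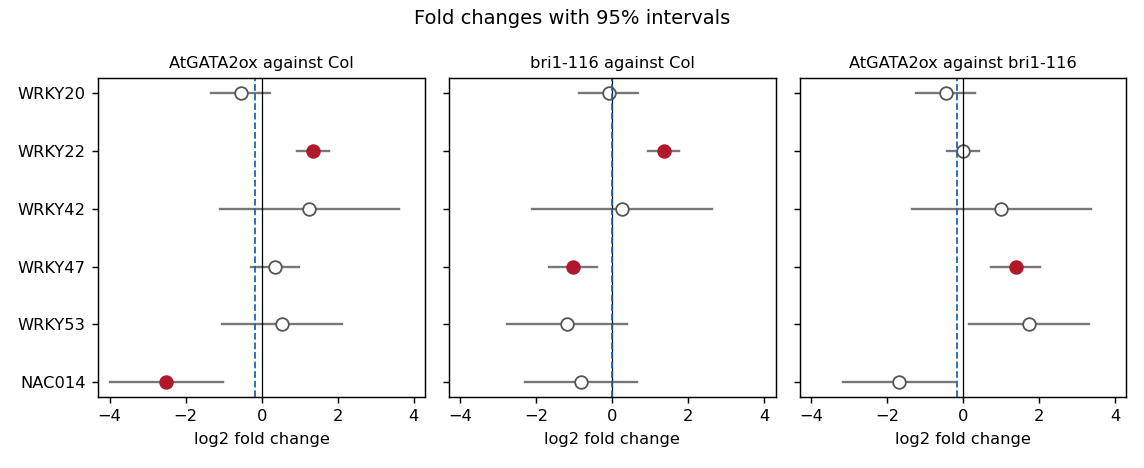
Log2 fold change of each gene in the 3 comparisons (x axis), with its 95% interval as a line. Filled points passed an adjusted p of 0.05 and the dashed line is the median of all probe sets (-0.17, -0.02 and -0.16 from left to right). WRKY22 is called against Col in both genotypes and lies at 0 between them, while WRKY42 has the widest intervals.

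The first comparison asked which of these genes differ when AtGATA2 is overexpressed. Of the 6 genes 1 rose (WRKY22), beside 9.72% of all probe sets, and 1 fell (NAC014), beside 18.8%. The other 4 were not called, and 28.5% of all probe sets were called in either direction. The median log2 fold change of the 6 genes was 0.44, and that of all probe sets was -0.17. The groups did not overlap for 3 genes (WRKY22, WRKY53 and NAC014), beside 41.3% of all probe sets.

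The second comparison asked which of them depend on the receptor BRI1. In bri1-116 again 1 rose (WRKY22), beside 7.09% of all probe sets, and 1 fell (WRKY47), beside 8%. The other 4 were not called, and 15.1% of all probe sets were called in either direction. The median was -0.46 for the 6 genes and -0.02 for all probe sets. Arrays did not overlap for WRKY22 and WRKY47, 2 of 6 genes, beside 37.6% of all probe sets.

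Directly between the genotypes 1 gene was higher in AtGATA2ox (WRKY47), beside 9.55% of all probe sets. By limma 0 were lower, beside 17.2%, and NAC014 alone was lower at an unadjusted p under 0.05. WRKY53, also not called, was higher in AtGATA2ox at an unadjusted limma p of 0.035. The other 5 genes were not called, and 26.8% of all probe sets were called in either direction. The median was 0.5 for the 6 genes and -0.16 for all probe sets. Arrays did not overlap for WRKY47 and WRKY53, beside 37.6% of all probe sets. Counts of 1 or 2 among 6 genes do not set these genes apart from the background shares.

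**Figure D3:**
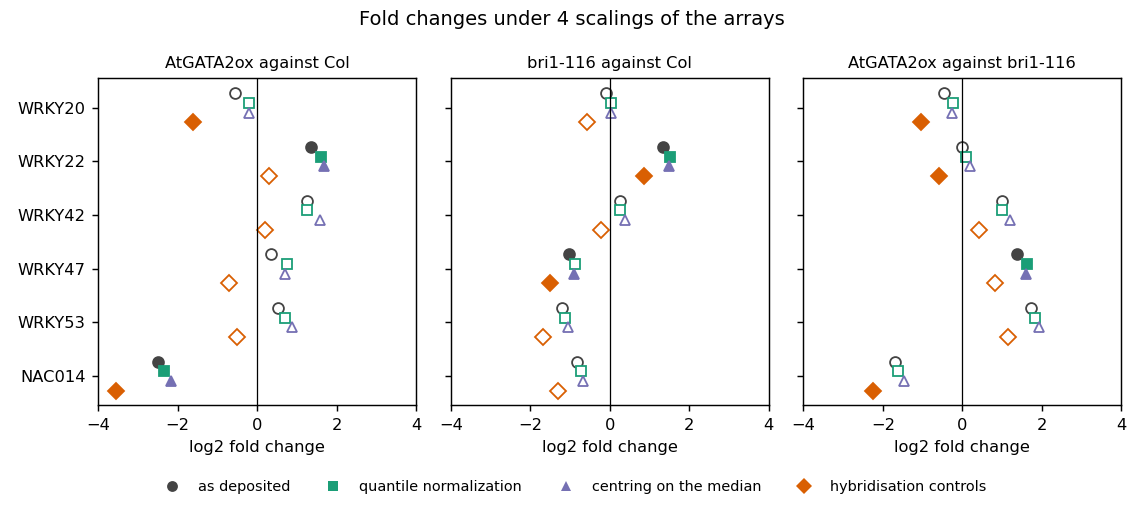
Log2 fold change (x axis) of each gene under the deposited scaling, quantile normalization, centring on the array median and scaling to the hybridisation controls, and filled markers passed an adjusted p of 0.05. With the hybridisation controls every change of AtGATA2ox against Col moves down, so WRKY22 lies at 0.29 and open, WRKY47 and WRKY53 turn below 0 (-0.7 and -0.51), and NAC014 lies at -3.55.

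Genes were drawn from 5 lists of pathways and responses linked to MYB, WRKY and NAC factors. The lists held 81 genes in all, of which 9 had a named probe set. None of the 18 defence genes linked to WRKY factors had one. Against Col, 3 of the 9 fell in AtGATA2ox, beside 18.8% of all probe sets. In bri1-116 2 of the 9 fell, beside 8%, and 1 rose, beside 7.09%. Counts this small do not set the 9 genes apart from those shares. In AtGATA2ox 0 rose by limma, also at an unadjusted p under 0.05. Control of the genes in the senescence and stress list by NAC factors was not tested. COR47, which encodes a dehydrin induced by cold and drought, was the only called gene of the 3 measured in that list. It read 4368.9, 4316.8 and 3465.6 in Col, 878.8, 1062.3 and 1122 in bri1-116, and 297.2, 334 and 375.8 in AtGATA2ox. The 3 genotypes did not overlap, and COR47 fell 12-fold in AtGATA2ox (-3.59 ± 0.16, adjusted p = 1.8e-08) and 3.96-fold in bri1-116 (-1.99 ± 0.16, adjusted p = 3.6e-06). It was also lower in AtGATA2ox than in bri1-116 (-1.6 ± 0.16, adjusted p = 1.2e-05). SAG101, of a lipase-like defence complex, and COR15A, which encodes a chloroplast protein induced by cold, were not called, and COR15A never read above 30.5, less than the highest Bacillus controls.

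In the glucosinolate list, whose genes are targets of MYB factors, 2 of 16 were measured. UGT74B1, which encodes a glucosyltransferase of glucosinolate synthesis, read 656.4, 849.3 and 661.5 in Col, 344.3, 320.7 and 257.8 in bri1-116, and 286.5, 282.3 and 133.7 in AtGATA2ox. Both genotypes lay below Col without overlap, with falls of 3.23-fold in AtGATA2ox (-1.69 ± 0.28, adjusted p = 0.00051) and 2.34-fold in bri1-116 (-1.23 ± 0.28, adjusted p = 0.0083). The fall in bri1-116 lost its call without Col replicate 2 (adjusted p = 0.054), with eBayes without a trend (0.056) and with replicate 3 as the only bri1-116 array (-1.47, adjusted p = 0.079). BCAT4, whose enzyme starts the lengthening of methionine for aliphatic glucosinolates, rose 3.23-fold in bri1-116 (130 ± 45.9 against 38.5 ± 6.54, 1.69 ± 0.49, adjusted p = 0.033). Its Col readings, 32.7 to 45.6, were no higher than those of the Bacillus controls. Without any 1 of the 6 Col and bri1-116 arrays BCAT4 was not called (adjusted p from 0.054 to 0.16), and scaling to the hybridisation controls gave 1.22 (adjusted p = 0.1). With replicate 3 as the only bri1-116 array it was 1.32 (adjusted p = 0.42), and with values raised to at least 84.1 it was 0.57 (adjusted p = 0.15).

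The only measured secondary wall gene of 17 was IRX10, listed as GUT2, which encodes a glycosyltransferase of xylan synthesis. It read 401.2, 326.5 and 481.2 in Col, 280.3, 346.5 and 342.4 in bri1-116, and 174.6, 190.5 and 95.8 in AtGATA2ox. AtGATA2ox lay below both other groups, 2.69-fold below Col (-1.43 ± 0.28, adjusted p = 0.0018) and 2.18-fold below bri1-116 (-1.12 ± 0.28, adjusted p = 0.009). The difference from bri1-116 lost its call with replicate 3 as the only bri1-116 array (-1.21, adjusted p = 0.12). Of 16 flavonoid genes and MYB partners 3 were measured, DFR, BAN and UGT78D2, and none was called in any comparison, with unadjusted p of 0.13 or more.

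**Figure D4:**
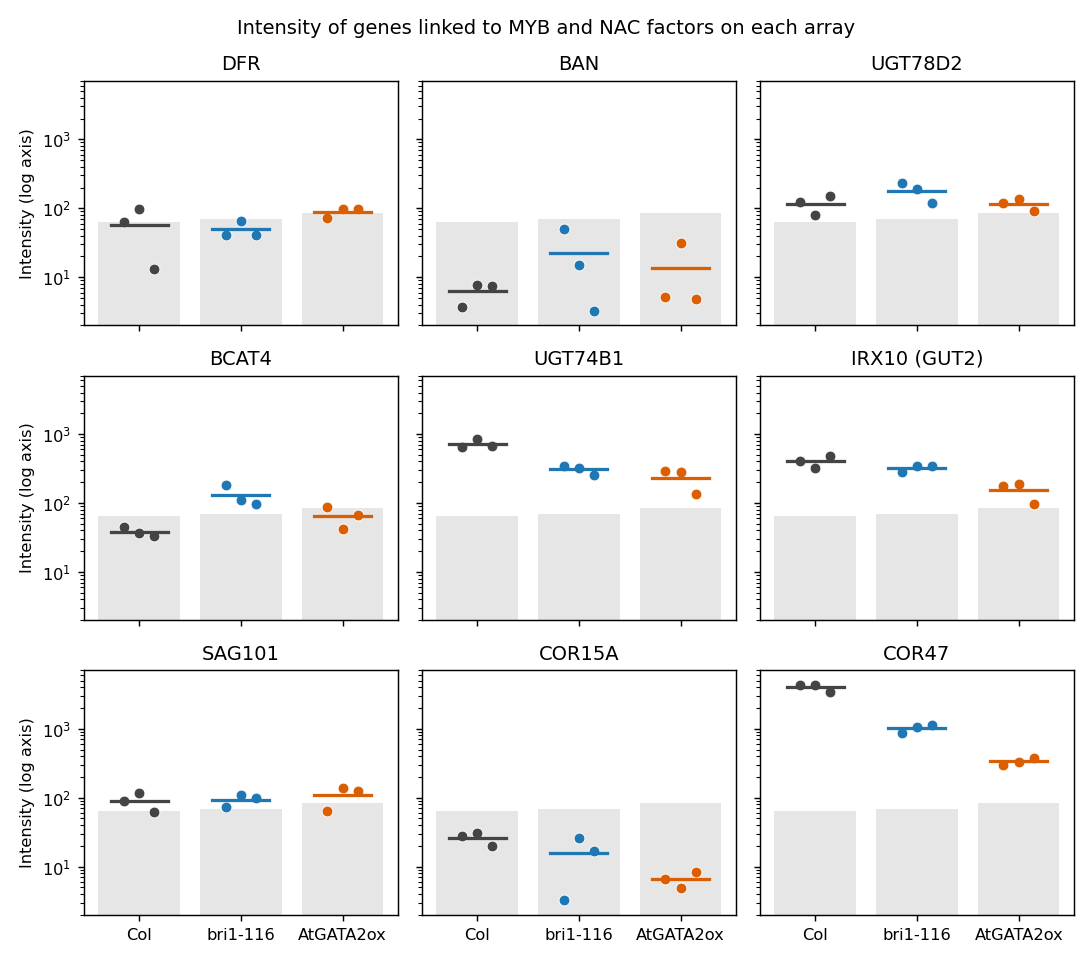
Intensity (log axis) of the 9 measured genes from the lists linked to MYB and NAC factors on each array. Points are arrays in replicate order, bars are means of 3 arrays, and grey columns reach up to the highest Bacillus control reading of the genotype. COR47 forms 3 separate levels (3465.6 to 4368.9 in Col, 878.8 to 1122 in bri1-116, 297.2 to 375.8 in AtGATA2ox), and UGT74B1 is below Col in both genotypes.

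Of the markers of seedling state and cell type, PORB, which encodes a protochlorophyllide oxidoreductase of etiolated and greening seedlings, was the only measured gene of 4 for etiolated seedlings. It was bright on every array, with Col at 5493.4 to 7722.6, bri1-116 at 14200.9 to 16482.6 and AtGATA2ox at 8013.6 to 11552.8. Against Col it was called higher in AtGATA2ox (0.57 ± 0.18, adjusted p = 0.033) and in bri1-116 (1.19 ± 0.18, adjusted p = 0.00057). PORB was lower in AtGATA2ox than in bri1-116 (-0.62 ± 0.18, adjusted p = 0.024). The AtGATA2ox rise lost its call with quantile normalization (0.21, adjusted p = 0.48) and without some single arrays. The direct difference lost its call with centring on the median (-0.41, adjusted p = 0.18) and without some single arrays. The 2 measured root markers of 9, EXPA7 and EXPA18, had sums of 94 to 132.9 (Col), 87.1 to 101.4 (bri1-116) and 36.8 to 139.2 (AtGATA2ox). EXPA18 fell in AtGATA2ox (-2.59 ± 0.75, adjusted p = 0.02; 0.053 to 0.08 without Col replicate 1, Col replicate 2 or AtGATA2ox replicate 2). Its AtGATA2ox readings, 3.7 to 29.6, lie within the range of the Bacillus controls, so the size of the fall is not exact. With values raised to at least 84.1 the fall was -0.096 and not called (adjusted p = 0.46). That floor made all AtGATA2ox readings of EXPA18 equal, and 102.9 was the only Col reading above it, so it could not show a large fall. EXPA7 went the other way in AtGATA2ox against Col and was not called (0.4 ± 0.79, adjusted p = 0.76). The 3 measured stomatal markers of 5, FMA, SPCH and MUTE, summed to 32.7 to 110.7, 93.4 to 172.7 and 72.6 to 133.5 in the same order, with none called in any comparison by limma, where each unadjusted p was 0.061 or more. SPCH (at most 18.9) and MUTE (at most 58.2) stayed within the range of the Bacillus controls on every array. No xylem marker had a named probe set. The part of tissue makeup in the levels of the WRKY and NAC genes was not tested.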

How the data were processed

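The deposited intensities are linear values per probe set. Per the submitters' processing notes the authors used MAS5 and GCRMA, naming neither versions nor the method behind these values. Tested on the values, each array's mean without the lowest and highest 2% was 500. No source used here states a genome build or holds detection calls, and neither coordinates nor sequences are printed.

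Of 22810 probe sets 22746 were tested, without the 64 array controls. RefSeq (TAIR10.1) was used for names and gene order, and 13436 of 13513 1-gene probe sets matched. A match of CHI to a chitinase locus was left out of the flavonoid list.

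Intensities were used as log2(value + 1) without further normalization in limma 3.58.1 (R 4.3.3), with lmFit and eBayes with a trend, 1 fit over 9 arrays and 6 residual degrees of freedom, tested on simulated data. Members and lists were chosen with earlier results of these data known. Named were all members, and called list genes, up to 3 per list and comparison. Uncalled list genes named for completeness, and markers, were chosen after their values were seen. Alternatives covered scaling, pseudocount, dim probe sets, variance model, single arrays and a replicate block, and a floor on dim values was added after seeing the data.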

Additional observations from a re-analysis of the deposited data

Results flagged for a closer look

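Array controls outside the tests read more than 10 times the highest Col array in 2 cases. The 25S ribosomal RNA control read 8762.9, 3533.8 and 107.7 on the bri1-116 arrays, against 143 to 194.2 in Col. WRKY22 read 981.5, 799.1 and 1010.1 on these bri1-116 arrays. A control probe set whose target is not named in the sources used here read 2473.3, 3662.8 and 3598.4 on the AtGATA2ox arrays, against 3.8 to 54.9 in Col. It sets all 3 AtGATA2ox arrays apart from the other 6. The AtGATA2ox samples also carry a separate run of sample numbers. Their hybridisation controls were the highest, with a mean log2 of 10.9 to 11.31, against 10.04 to 10.21 in Col and 10.39 to 10.72 in bri1-116. An effect of a separate set of arrays cannot be told apart from that of the AtGATA2ox genotype.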

How the results depend on the processing

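WRKY22 was called in bri1-116 under all 20 alternatives, and in AtGATA2ox under all but scaling to the hybridisation controls. Of the members called against Col, AtGATA2ox had 0 higher and 2 lower with that scaling, 0 lower without the dimmest 40% of probe sets, where NAC014 was not tested, and 2 higher and 0 lower with the floor on dim values. In bri1-116 0 were lower with quantile normalization, eBayes without a trend and the floor, and 2 with replicate 3 as the only bri1-116 array. Between the genotypes 0 were higher and 3 lower with scaling to the hybridisation controls, and 2 were higher with the floor. In both comparisons of AtGATA2ox the gene added by the floor was WRKY53, whose Col and bri1-116 readings the floor made equal. The floor also made the AtGATA2ox readings of NAC014 equal, and it changed no reading of WRKY47. Without single arrays, lower members numbered 0 to 2 in AtGATA2ox, 0 to 1 in bri1-116 and 0 to 1 between the genotypes, and higher members between the genotypes 1 to 2. The cause was not tested. Over all probe sets 6486 were called in AtGATA2ox and 12467 with scaling to the hybridisation controls. In bri1-116 3431 were called, and 2104 with eBayes without a trend, 5182 with only those 2 genotypes fitted, 1416 with the single bri1-116 array and 2152 to 4115 without single arrays. Between the genotypes it was 6086, and 2278 with the single bri1-116 array. Higher probe sets made up 34.1% of the calls in AtGATA2ox (47.2% with quantile normalization, 58.1% with centring on the median, 3.38% with the hybridisation controls), 47% in bri1-116 (51.2%, 59.9% and 11.5%) and 35.7% between the genotypes (45.2%, 50% and 10.8%). PORB in AtGATA2ox turned from 0.57 to -0.48 with the hybridisation controls. Same-numbered arrays did not deviate together (r from -0.0181 to 0.0198 over 9 pairs). With the replicate block 6460, 3439 and 6036 probe sets were called, and no member's call changed. Depth cannot be judged from these arrays, and WRKY42, WRKY53 and NAC014 are limited by intensities near the Bacillus controls.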

Other observations

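Genes next to the 6 members were looked at after the members' values were seen, taking the 4 protein-coding genes on each side that had a named probe set. Of 25 such neighbours 2 were called higher and 5 lower in AtGATA2ox against Col, beside 28.5% of all probe sets called, and 2 were higher in bri1-116, beside 15.1%. Between the genotypes 3 were higher and 4 lower in AtGATA2ox, beside 26.8%. These counts do not set the neighbours apart from the shares over all probe sets. Against Col, AT4G23820 near WRKY53 (-1.195 ± 0.14, adjusted p = 4e-05) and AT4G04460 near WRKY42 (-1.63 ± 0.25, adjusted p = 0.00027) were lower in AtGATA2ox. AT4G23840, near WRKY53, was higher in AtGATA2ox (0.58 ± 0.19, adjusted p = 0.04) and in bri1-116 (0.63 ± 0.19, adjusted p = 0.044). Of the 4 measured neighbours of WRKY22, AT4G01210 was lower in AtGATA2ox (-1.66 ± 0.5, adjusted p = 0.025). Next to NAC014, AT1G33055 was higher (0.74 ± 0.25, adjusted p = 0.038) and AT1G33050 lower (-1.14 ± 0.26, adjusted p = 0.0043) in AtGATA2ox. AT4G26620, near WRKY20, was lower in AtGATA2ox (-1.06 ± 0.2, adjusted p = 0.0015) and higher in bri1-116 (0.91 ± 0.2, adjusted p = 0.0072), each against Col, and it was lower in AtGATA2ox than in bri1-116 (-1.97 ± 0.2, adjusted p = 1.4e-05).

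ZAP1, which RefSeq also lists as WRKY1, fell outside the rule on symbols. Col arrays read 16.3 to 44.4, bri1-116 arrays 14.3 to 79.9 and AtGATA2ox arrays 6 to 16.4, with no call in any of the 3 comparisons (unadjusted p of 0.071 or more).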
